A study of Mus musculus with 2 samples.

Results

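The 34 genes described here make up the complement system as listed for this work: 7 genes of the classical pathway, 3 of the alternative pathway, 6 of the lectin pathway, 7 of the terminal pathway, 3 receptors and 8 regulators. They were chosen by name, as a functional group, from the probes of a whole mouse genome array, with earlier results of these data known. Each of the 34 had at least 1 probe, and 26 were measured well above background in both tumour pools, out of 20858 genes measured that way in all. The enriched environment pool held total RNA of subcutaneous Panc02 tumours from 6 C57BL/6 mice that had moved to enriched housing at 3 weeks of age, had been injected with the tumour cells and had then stayed in that housing for 5 more weeks. The standard environment pool held the same material from 6 mice of that strain, age and schedule in standard housing. Panc02 is a mouse pancreatic carcinoma line, so that all 12 tumours are grafts of 1 line under the skin, not tumours of the pancreas. Each pool was labelled with Cy3 and hybridised to 1 Agilent 1-colour array, and both arrays lie on 1 slide.

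Complement is a cascade of plasma proteins that marks surfaces for uptake by phagocytes and can pierce membranes. The classical pathway starts when C1q binds antibody or other ligands, the lectin pathway when collectins or ficolins bind sugars, and the alternative pathway runs by spontaneous turnover of C3 and as an amplification loop. All routes cleave C3 and then C5, the fragments signal through their own receptors, and the late components assemble the membrane attack complex. Most plasma complement is made by the liver, C1q and properdin come largely from myeloid cells, and tumour cells, fibroblasts and macrophages can make several components locally.

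With 1 array per housing condition and RNA pooled before labelling, there is no spread between mice, and no test, standard deviation over samples or p-value was possible. The level of a gene is the log2 of its intensity after subtraction of the log2 75th percentile of its own array, and the difference is enriched minus standard. In these units 1 is a 2-fold difference, and that fold was the threshold for naming a gene higher or lower. The spots well above background made up 77.4% of 43379 in the enriched pool and 77.2% in the standard pool, and no spot was saturated. As a measure of technical error only, repeated spots of a probe differed by a median SD of 0.06 (198 probes), and different probes of a gene by a median SD of 0.17 (6610 genes). The robust SD of the differences of all 20858 genes was 0.57. Fewer cells of a type and less RNA per cell cannot be told apart in such bulk samples.

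Among the 26 measured complement genes, 8 were at least 2-fold higher in the enriched pool: C2, C4b, C3, Cfb, Cfp, Hc, Cfi and Clu. That is 30.8% of the measured members, against 5.71% of all measured genes. Another 3, Masp2, C8g and Vtn, were at least 2-fold lower in the enriched pool, which is 11.5% of the measured members against 9.46% of all measured genes. The lower share is thus close to that of the array as a whole, and the higher share is above it. Since the members were chosen with earlier results of these data known, these shares are a description only. The median difference of the members was -0.03, beside 0.03 for all genes, with 13 members above 0 and 13 below. The medians of the members and of all genes thus lay close together, while single members lay far above 0. Of the 8 members not measured on both arrays, Mbl1 and C5ar1 were well above background in the enriched pool alone, Fcnb in the standard pool alone, and Mbl2, C7, C8a, C8b and C9 in neither. Signal was summed over probes, each counted once at the mean level of its spots. Of this summed signal, probes of the 34 genes held 0.282% in the enriched pool and 0.132% in the standard pool. Without C3 and Clu, which each had a bright probe in both pools, the shares were 0.126% in the enriched pool and 0.0879% in the standard pool.

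**Figure D1:**
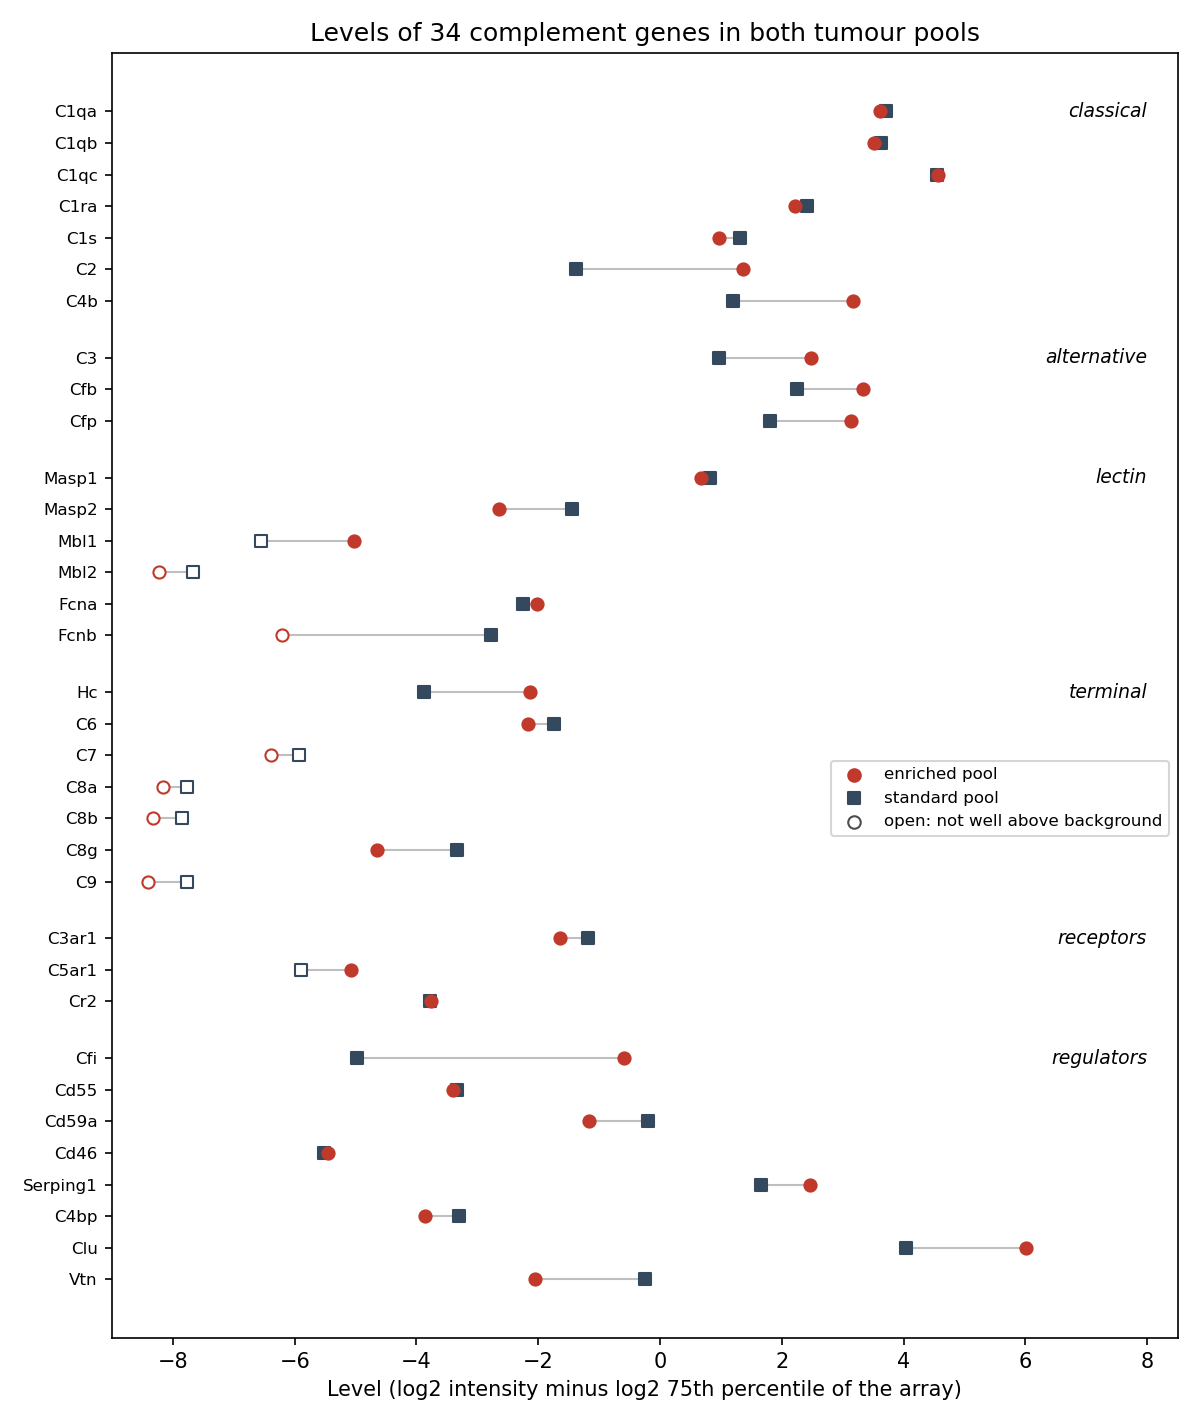
Level of each of the 34 complement genes (horizontal axis, log2 intensity minus the log2 75th percentile of the array) in the enriched pool (circles) and the standard pool (squares), with open symbols where no probe was well above background. The 3 C1q genes overlap between pools, while C2, C4b, C3, Cfb, Cfp, Hc, Cfi and Clu lie to the right in the enriched pool; levels of different genes come from different probes and cannot be set against each other.

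In the classical pathway all 7 genes were measured in both pools, and they fell into 2 sets. The recognition subunits and the C1 proteases were at nearly the same level in both pools, and the 2 components cleaved next, C4 and C2, were higher in the enriched pool. C1qa, C1qb and C1qc encode the chains of C1q. C1qa had a level of 3.62 in the enriched pool and 3.71 in the standard pool, a difference of -0.09. C1qb had 3.52 in the enriched pool and 3.63 in the standard pool, a difference of -0.11. C1qc had 4.56 in the enriched pool and 4.55 in the standard pool, a difference of 0.01. All 3 differences are smaller than the median SD between probes of a gene. Those of C1qa and C1qb changed sign under 2 of 7 other processing settings, quantile normalization and the deposited log2 table.

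The proteases bound to C1q are C1r, which activates C1s, and C1s, which cleaves C4 and C2. Both were slightly lower in the enriched pool. C1ra, printed on the array as C1r, had a level of 2.22 in the enriched pool and 2.42 in the standard pool, a difference of -0.20. C1s had 0.97 in the enriched pool and 1.32 in the standard pool, a difference of -0.35, with an SD of 0.02 between its 2 probes. Neither difference came near 2-fold. A further probe printed as C1r carries the accession and description of C1rb, a close copy of C1ra, and was counted as that gene.

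C2, the protease component of the classical and lectin C3 convertase, was 6.69-fold higher in the enriched pool. Its first probe (chr17:32958754-32958813 on mm7) read 6389 intensity units in the enriched pool and 709 in the standard pool. Its second probe (chr17:32959305-32959480) read 1001 in the enriched pool and 118 in the standard pool. Both probes thus gave nearly the same difference, 2.78 and 2.70, with an SD of 0.06, and their mean was 2.74. Only 0.312% of all measured genes were at least as far up in the enriched pool. C4b, the gene of mouse C4, whose larger fragment attaches to the target surface, was 3.93-fold higher in the enriched pool. Its single probe (chr17:32815561-32815620) read 8879 in the enriched pool and 1727 in the standard pool, a difference of 1.98 that 1.30% of all genes reached. C4b has a near-identical copy, C4a, and the array alone does not show how far 1 probe also binds RNA of the other. The classical median was -0.09, because 5 of its 7 genes lay near 0 or just below.

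The promoters of C1qb and C1qc are shown because these neighbouring genes had almost the same level in both pools, beside those of C3 and Hc further on, which did not. Promoter sequences are from RefSeq on GRCm38.p6, 250 bases before to 50 after the annotated start, and 26 of the 34 genes were found in that table. Capitals mark matches on either strand to any of 4 short motifs: TTNNGNAA for C/EBP-type factors, TTCNNNGAA for STAT-type factors, GAGGAA for PU.1-type factors, and TATAAA for a TATA box. Of 32851 mouse promoters of this length, 40.7% held the C/EBP-type letters, 8.30% the STAT-type, 28.3% the PU.1-type and 13.6% the TATA box. PU.1 is a transcription factor of myeloid and B cells, and C/EBP and STAT factors act in the acute phase response. C1qb (chr4:136886151-136886450, minus strand) and C1qc (chr4:136892865-136893164, minus strand) read as follows.
C1qb: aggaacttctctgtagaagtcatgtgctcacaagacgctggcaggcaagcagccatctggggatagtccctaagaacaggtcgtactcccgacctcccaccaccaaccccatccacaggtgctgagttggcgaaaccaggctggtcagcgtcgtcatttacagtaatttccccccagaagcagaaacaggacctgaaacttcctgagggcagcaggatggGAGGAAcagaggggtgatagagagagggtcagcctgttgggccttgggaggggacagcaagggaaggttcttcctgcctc
C1qc: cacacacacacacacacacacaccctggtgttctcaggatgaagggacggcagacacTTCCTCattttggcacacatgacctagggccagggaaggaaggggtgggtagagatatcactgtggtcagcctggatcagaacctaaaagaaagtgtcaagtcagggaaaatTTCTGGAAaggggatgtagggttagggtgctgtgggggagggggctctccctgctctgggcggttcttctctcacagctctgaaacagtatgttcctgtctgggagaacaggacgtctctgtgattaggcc
Both held 1 PU.1-type match, at base 221 of the window in C1qb and, on the opposite strand, at base 58 in C1qc. C1qc also held 1 C/EBP-type match, at base 170. With PU.1-type letters in 28.3% of all promoters, a match is a description of the sequence and not a binding site.

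All 3 genes counted with the alternative pathway were at least 2-fold higher in the enriched pool, with a median of 1.33. C3, the component on which every route converges and which is counted here only once, was measured by 2 probes. The first (chr17:55414567-55414626 on mm7) was printed in 10 spots, with levels between 5.90 and 6.15 in the enriched pool and between 4.53 and 4.73 in the standard pool. The 2 pools did not overlap over these spots, which gave differences from 1.31 to 1.42 with an SD of 0.03. These 10 spots measure the same RNA 10 times and are not replicates of the housing. The mean intensity was 63273 in the enriched pool and 18946 in the standard pool. The second C3 probe (chr17:55435522-55435679) had a level of -1.04 in the enriched pool and -2.73 in the standard pool, a difference of 1.69. Averaged over both probes, C3 was 2.87-fold higher in the enriched pool (difference 1.52), and 2.43% of all genes were at least as far up.

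The C3 promoter (chr17:57228087-57228386, minus strand, GRCm38.p6) is shown because it held several matches close together.
C3: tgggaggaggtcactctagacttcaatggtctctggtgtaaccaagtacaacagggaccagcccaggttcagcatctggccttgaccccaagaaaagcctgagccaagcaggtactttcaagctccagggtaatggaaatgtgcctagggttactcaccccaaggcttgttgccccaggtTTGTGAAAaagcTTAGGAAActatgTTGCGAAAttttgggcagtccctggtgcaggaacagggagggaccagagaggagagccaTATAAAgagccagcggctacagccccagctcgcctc
The 3 C/EBP-type matches start at bases 181, 193 and 206 of the window, and a match to TATAAA starts at base 265, after the annotated start. Whether these letters act as a TATA box was not tested. Among all promoters, 3.60% held at least 3 C/EBP-type matches. No STAT-type letters were found in this window.

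Cfb encodes factor B, the protease of the alternative C3 convertase. It had a level of 3.34 in the enriched pool and 2.24 in the standard pool, and was 2.13-fold higher in the enriched pool (difference 1.09). Its probe (chr17:32952681-32953037) read 9941 in the enriched pool and 3565 in the standard pool. Of all genes, 4.72% were at least as far up, so that Cfb lies nearest to the threshold among the 8 higher members. Cfp encodes properdin, the plasma protein that stabilises this convertase. It had a level of 3.14 in the enriched pool and 1.81 in the standard pool, and was 2.52-fold higher in the enriched pool (difference 1.33). Its probe lies at chrX:19358766-19358825.

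**Figure D2:**
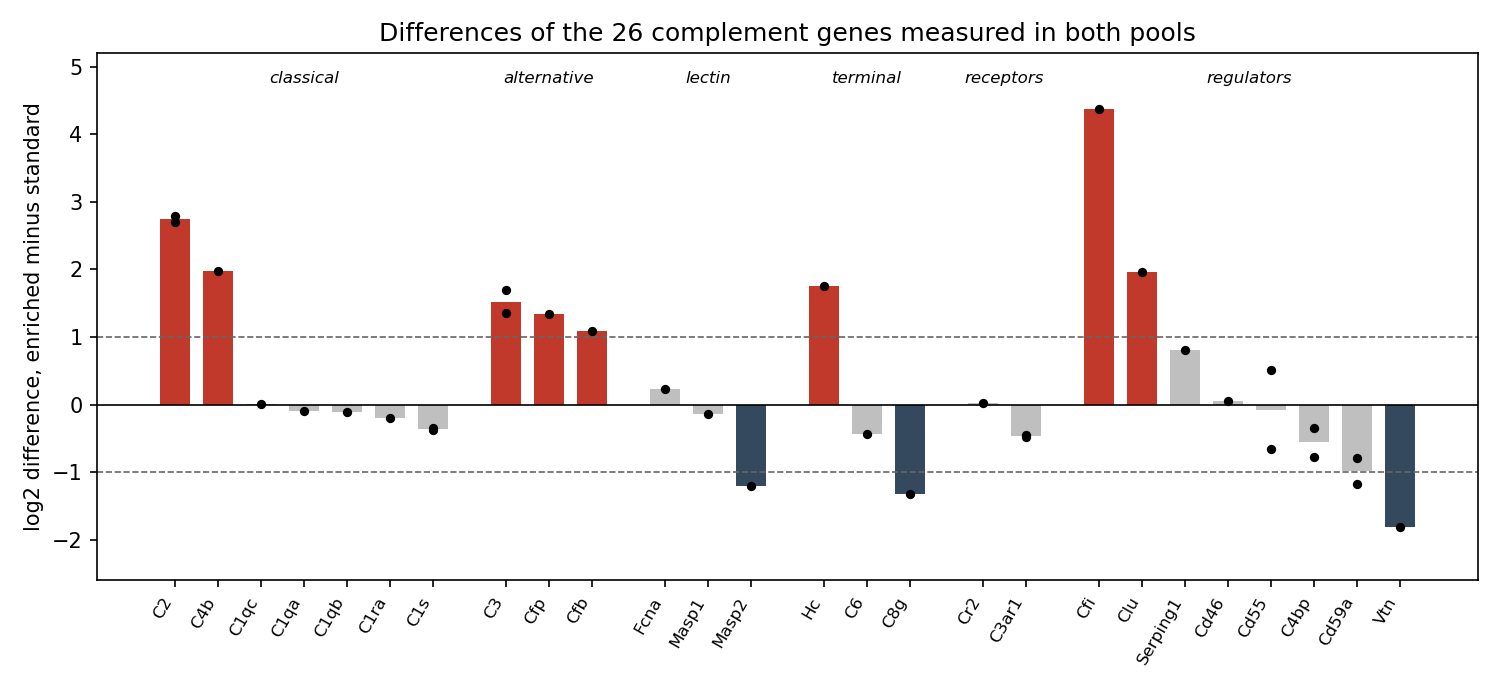
Difference (enriched minus standard, log2) of the 26 complement genes measured in both pools, as bars of the gene mean with a dot per probe, grouped by part of the system; dashed lines mark 2-fold. Red bars are the 8 members at least 2-fold higher in the enriched pool, dark blue bars the 3 at least 2-fold lower, and the 2 dots of Cd55 lie on opposite sides of 0.

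C2, Cfb and C4b are neighbours in the class III part of the major histocompatibility complex on chromosome 17, together with C4a. Their probes span chr17:32815561-32959480 on mm7, the build of the array design. The 4 complement genes there had a median difference of 1.77, with a range of 1.09 to 2.74. Of the other genes with a probe in that span or within 100 kb of it, 17 were measured, with a median of 0.44 and a range of -0.59 to 1.73. Of the 17, 14 were above 0, and their median lay above the 0.03 of all genes. At 2-fold or more, 2 were higher in the enriched pool (11.8%, against 5.71% of all genes) and none was lower. The 2 were Slc44a4, a choline transporter-like protein, at 1.73, and a transcript with only an Ensembl identifier next to C4a, at 1.57. The probe of that transcript starts at chr17:32909710 and that of C4a, also at 1.57, at chr17:32912160. Whether this transcript is part of C4a was not tested, so its count among the other genes is open. This window, and those of the other gene clusters below, were drawn after the values were known.

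**Figure D3:**
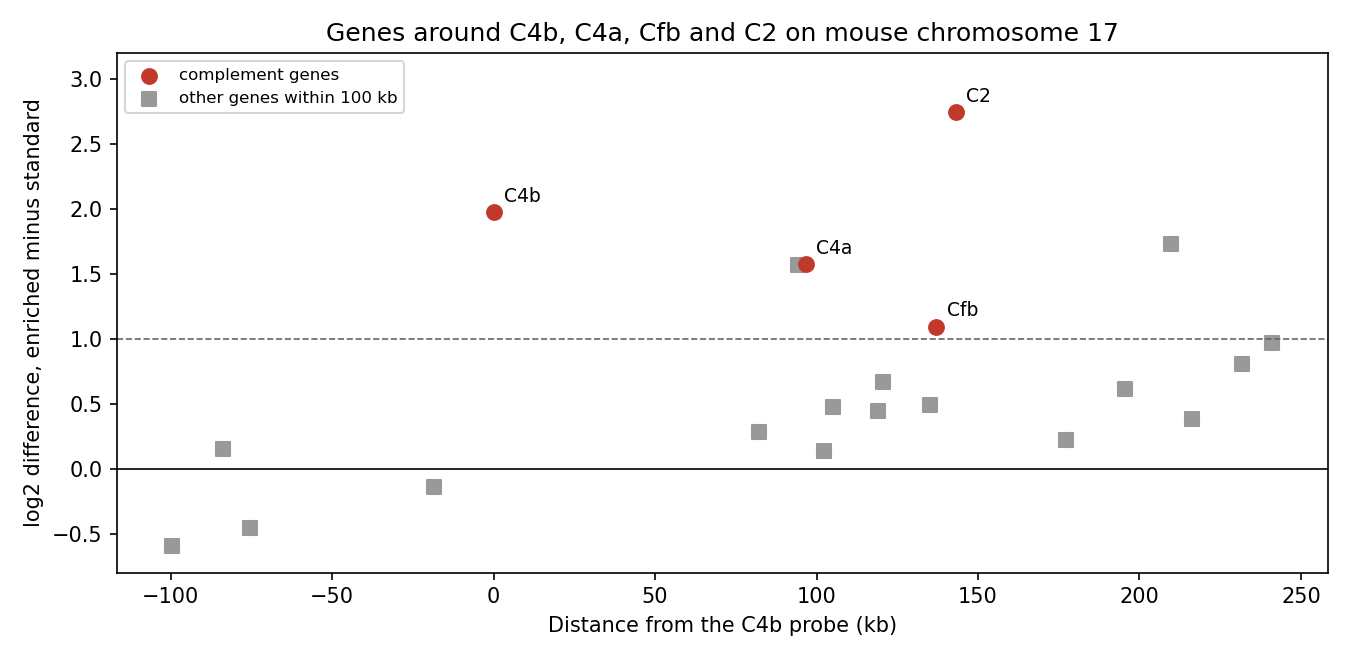
Difference (enriched minus standard, log2, vertical axis) of each measured gene against the distance of its probe from the C4b probe in kb (horizontal axis), with complement genes as circles and other genes as squares. The 4 complement genes lie between 1.09 and 2.74, above the dashed line at 2-fold, and 15 of the 17 other genes lie below it.

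In the other clusters of complement genes no member measured in both pools passed 2-fold. The C1q genes (chr4:136259100-136274990 on mm7) had a median of -0.09, and the 1 measured neighbour, Zbtb40, had 0.19. The 5 genes of the C1r and C1s cluster (chr6:124489045-124650580), of which C1rb, C1s2 and C1rl are relatives outside the 34, ran from -0.69 to -0.20, beside a median of -0.01 for 7 neighbours. The cluster of Cr2, Cd46 and Cr1l (chr1:194596293-194717710) ran from 0.02 to 0.19, beside a median of -0.28 for 4 neighbours, and no neighbour in these 3 clusters passed 2-fold. C4bp and Cd55, also on chromosome 1, had -0.56 and -0.07, beside a median of -0.08 for 5 neighbours, of which 1 was at least 2-fold higher in the enriched pool (AA986860, at 1.52).

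In the lectin pathway 3 of 6 genes were measured in both pools, none was 2-fold higher in the enriched pool, and the median was -0.14. The recognition molecules were dim. Mbl1, a mannose-binding lectin, had a level of -5.03 in the enriched pool and was not well above background in the standard pool, where it read -6.55. Set against the lowest level well above background in the standard pool (-5.68), it was at least 1.58-fold higher in the enriched pool. Mbl2, the other mannose-binding lectin, was not well above background in either pool, at -8.24 in the enriched pool and -7.68 in the standard pool. Fcna, a ficolin made by liver and spleen macrophages, had -2.02 in the enriched pool and -2.25 in the standard pool, a difference of 0.23.

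Fcnb, the ficolin of the myeloid lineage in bone marrow, was the member with the widest gap towards the standard pool. It was not well above background in the enriched pool, where it read -6.20, and had a level of -2.78 in the standard pool. Set against that reading, which lay at about the lowest level well above background there (-6.21), it was 10.7-fold lower in the enriched pool. The size of this fold depends on how background was removed, since the enriched reading was not well above it. Of the 7 neutrophil marker genes measured, 5 were also lower by 2-fold or more in the enriched pool and 1 was higher, with a median of -1.88. The list held 0.0720% of the summed signal in the enriched pool against 0.183% in the standard pool. By name, the brightest of the measured ones were S100a9 at -1.33, S100a8 at -1.88 and Ltf at -2.52, and the 1 higher was Cxcr2 at 1.44. Camp and Elane were well above background in the standard pool alone and do not enter the median. Cxcr2, Camp and Elane are named here after their values were seen. The part of the neutrophil marker genes in the Fcnb difference was not tested.

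The lectin proteases were measured by probes that did not behave alike. Masp2, which cleaves C4 and C2, had a level of -2.65 in the enriched pool and -1.45 in the standard pool and was 2.29-fold lower in the enriched pool (difference -1.20). That value rests on 1 of its 3 probes, and without the filter on dim probes or with normexp background correction it came to -0.97 and -0.93, under 2-fold. Masp1 had a level of 0.68 in the enriched pool and 0.82 in the standard pool, a difference of -0.14, from 1 of its 4 probes. Another 2 of its probes were well above background in the standard pool alone, 1 reading -6.09 in the enriched pool and -5.28 in the standard pool, the other -8.36 in the enriched pool and -4.91 in the standard pool. Masp1 makes several splice forms, and no probe was assigned to a form here.

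The terminal pathway split between its first component and the late ones. Hc, the mouse gene of C5, which is cleaved into the C5a signal peptide and the C5b anchor of the attack complex, was 3.37-fold higher in the enriched pool. Its probe (chr2:34990690-34990749 on mm7) read 225 in the enriched pool and 51.0 in the standard pool, which are levels of -2.13 in the enriched pool and -3.88 in the standard pool. The difference was 1.75, reached by 1.77% of all genes. Under normexp background correction it was 1.03, still above 2-fold. The Hc promoter (chr2:35061363-35061662, minus strand, GRCm38.p6) is shown beside that of C3, since both genes were higher in the enriched pool.
Hc: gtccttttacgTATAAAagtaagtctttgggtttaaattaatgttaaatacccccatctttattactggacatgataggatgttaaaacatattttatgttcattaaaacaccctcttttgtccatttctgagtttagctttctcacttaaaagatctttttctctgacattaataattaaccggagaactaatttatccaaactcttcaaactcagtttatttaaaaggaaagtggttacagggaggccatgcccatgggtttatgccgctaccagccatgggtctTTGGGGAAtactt
It held 1 C/EBP-type match, at base 288 of the window, and 1 TATA box at base 12, with neither STAT-type nor PU.1-type letters. The close group of matches seen in C3 was therefore not found in this window.

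Of the other 6 terminal genes, only C6 and C8g were measured in both pools. C6, which joins C5b at the membrane, had a level of -2.18 in the enriched pool and -1.74 in the standard pool, a difference of -0.43. C8g, the small subunit of C8, had -4.66 in the enriched pool and -3.34 in the standard pool and was 2.49-fold lower in the enriched pool (difference -1.32). With normexp background correction C8g came to -0.79, under 2-fold. C7, C8a, C8b and C9, which complete the pore, were not well above background in either pool. Their readings lay between -8.42 and -6.38 in the enriched pool and between -7.85 and -5.92 in the standard pool. The C7 probe is printed under a clone name that RefSeq lists as a synonym of C7. RNA of these 4 genes was not detectable in either pool at this signal over background.

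Of the 3 receptors, 2 were measured in both pools. C3ar1, the receptor of the C3a fragment on myeloid cells, had a level of -1.64 in the enriched pool and -1.18 in the standard pool, a difference of -0.46 with an SD of 0.02 between its 2 probes. Cr2, the receptor of C3d on B cells and follicular dendritic cells, had -3.76 in the enriched pool and -3.78 in the standard pool, a difference of 0.02. C5ar1, the receptor of C5a, was well above background in the enriched pool alone, at -5.07, and read -5.90 in the standard pool. That is at least 1.53-fold higher in the enriched pool, a lower bound that does not place C5ar1 on either side of 2-fold. Neither of the 2 receptor genes measured in both pools passed 2-fold.

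The 8 regulators were all measured in both pools, 4 of them above 0 and 4 below, with a median of -0.01. They held the widest differences in both directions among the members measured in both pools. Cfi encodes factor I, the plasma protease that inactivates C3b and C4b. Its single probe (chr3:129714547-129714606 on mm7) read 653 in the enriched pool and 24.0 in the standard pool, a level of -0.59 in the enriched pool and -4.97 in the standard pool. Cfi was 20.8-fold higher in the enriched pool (difference 4.38), and only 0.0336% of all genes were at least as far up. The standard reading lay close to the lowest level well above background there, so the size of this fold depends on how background was removed. With normexp background correction the difference was 2.76, and over all 7 other settings it ran from 2.76 to 4.66, always above 2-fold.

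Clu encodes clusterin, a secreted chaperone that binds terminal complexes. It had a level of 6.01 in the enriched pool and 4.05 in the standard pool and was 3.89-fold higher in the enriched pool (difference 1.96). Its probe (chr14:60841778-60841837) read 63278 in the enriched pool and 12441 in the standard pool, far from background in both, and 1.33% of all genes were at least as far up. Serping1, the C1 inhibitor, had a level of 2.47 in the enriched pool and 1.66 in the standard pool, a difference of 0.81 that stayed under 2-fold in each of the 7 other settings. Vtn encodes vitronectin, which also binds terminal complexes and is a plasma and matrix protein. It had a level of -2.06 in the enriched pool and -0.25 in the standard pool and was 3.51-fold lower in the enriched pool (difference -1.81). Its probe (chr11:78583466-78583738) read 236 in the enriched pool and 633 in the standard pool, and 3.59% of all genes were at least as low. The 2 regulators that bind terminal complexes thus differed in opposite directions.

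Of the membrane-bound regulators among the members, Cd59a was lower in the enriched pool, Cd46 was near 0, and Cd55 had no clear direction. Cd59a, which blocks insertion of C9, had a level of -1.17 in the enriched pool and -0.19 in the standard pool. Its difference of -0.98, from probes at -1.17 and -0.79, fell just short of 2-fold. Cd55, which speeds the decay of convertases, had -3.40 in the enriched pool and -3.33 in the standard pool, a difference of -0.07 that averages 2 probes on opposite sides of 0, 0.51 and -0.65. No direction can be given for Cd55. One more probe printed as Cd55, well above background in the standard pool alone, lies at chr1:130295529-130295588, within the span of the probes of its close copy Cd55b. Cd46, the cofactor of factor I that in mice is expressed mainly in testis, had -5.46 in the enriched pool and -5.52 in the standard pool, a difference of 0.06. C4bp, the plasma cofactor that binds C4b, had -3.86 in the enriched pool and -3.30 in the standard pool, a difference of -0.56.

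Beside the 34 genes, 27 further complement genes were listed, and 22 of them were measured in both pools. Of these, 2 passed 2-fold upwards and 3 downwards in the enriched pool, and the median was -0.25. The shares, 9.09% and 13.6%, are nearer to the 5.71% and 9.46% of all genes than those of the members are for higher genes. Cfd, which encodes factor D, the protease that cleaves factor B and is also known as adipsin for its high expression in fat, had a level of 7.53 in the enriched pool and 4.42 in the standard pool. It was 8.65-fold higher in the enriched pool (difference 3.11). C4a, the copy of C4b, was at -2.82 in the enriched pool and -4.39 in the standard pool, a difference of 1.57.

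The 3 lower ones were Cd59b, a copy of Cd59a, at -2.66, Cpn2, the regulatory subunit of the carboxypeptidase that trims C3a and C5a, at -2.08, and the pentraxin Crp at -1.74. Cd59b rests on 1 of its 2 probes. In the enriched pool Cpn2 read -5.52 and Crp -5.82, close to the lowest level well above background there (-6.21). The sizes for Cpn2 and Crp thus depend on how background was removed. Cd55b was well above background in the enriched pool alone and at least 3.49-fold higher there, by 1 of its 2 probes (chr1:130341830-130341889 on mm7). The other (chr1:130292778-130314715) was not well above background in either pool, at -8.46 in the enriched pool and -7.98 in the standard pool. A probe of Cd55 lies close to the probe used (chr1:130344430-130352416). Whether the probe used reports Cd55b was not tested. Apcs, the pentraxin serum amyloid P, was well above background in the standard pool alone, and its level in the enriched pool was at least 2.73-fold lower. Cr1l, a membrane regulator of mice known as Crry and named here after its value was seen, was at 0.19. With Cfd, the 4 listed genes that build the alternative pathway convertase (C3, Cfb, Cfp and Cfd) were above 2-fold.

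RNA levels of cell type markers were read from 9 lists, and some of these lists differed between the 2 pools as well. Numbers of cells were not measured. All 12 carcinoma epithelium markers were measured, so the labelled tumour tissue carries its defining genes in both pools. Of these 12, 11 were at least 2-fold higher in the enriched pool and 1 lower, with a median of 1.86, and the list held 1.15% of the summed signal in the enriched pool against 0.281% in the standard pool. The brightest were Krt18 at 1.59, Krt8 at 2.14 and Krt7 at 1.51. All 12 skeletal muscle markers passed 2-fold downwards in the enriched pool (median -7.80) and held 0.0308% of the signal in the enriched pool against 3.90% in the standard pool. Tnnc2 at -6.68, Myh4 at -6.74 and Acta1 at -7.33 were the brightest. These shifts run alongside every complement difference given above, and their part in them was not tested.

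The macrophage list, which bears on C1q, C3ar1 and Cfp, was nearly level between the pools. All 12 markers were measured, none differed by 2-fold, the median was 0.12, and they held 0.284% of the signal in the enriched pool and 0.262% in the standard pool. Lyz2 at -0.03, Tyrobp at 0.09 and Aif1 at 0.11 were the brightest. The markers ran from -0.09 to 0.97. The C1q genes, at -0.11 to 0.01, lay below the median of this list, with C1qb just below its lowest value. C3ar1, at -0.46, lay further below the lowest value of the list, and Cfp at 1.33 lay above the highest.

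Hepatocyte markers bear on the plasma components. Of 12, only 5 were measured in both pools, and Alb, Apoa1, Ttr, Fga and Fgg were not well above background in either. The list held 0.00176% of the signal in the enriched pool and 0.00205% in the standard pool, with 1 gene at least 2-fold higher in the enriched pool and 2 lower. The brightest of the 5 were Cyp2e1 at 1.63, Ahsg at -3.44 and Tat at -1.42. Another, Fgb, was well above background in the standard pool alone, and 1 listed gene had no probe. The list is thus mixed, with some members detected and others not, and its part in the complement differences was not tested.

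Fibroblast markers were split, with 5 of 12 at least 2-fold higher in the enriched pool, 3 lower and a median of 0.57. They held 0.529% of the signal in the enriched pool and 0.203% in the standard pool, and the brightest were Pdgfrb at -1.18, Lum at 0.39 and Col1a1 at 2.02. Adipocyte markers, which bear on Cfd, had 5 of 7 measured genes at least 2-fold higher in the enriched pool and none lower, with a median of 1.63. Of the brightest, Fabp4 was at 0.34, Cidec at 2.21 and Adipoq at 2.40. Endothelial markers had a median of -0.76 and B cell markers, which bear on Cr2, one of -0.22. The part of these cell types in the complement differences was not tested.

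**Figure D4:**
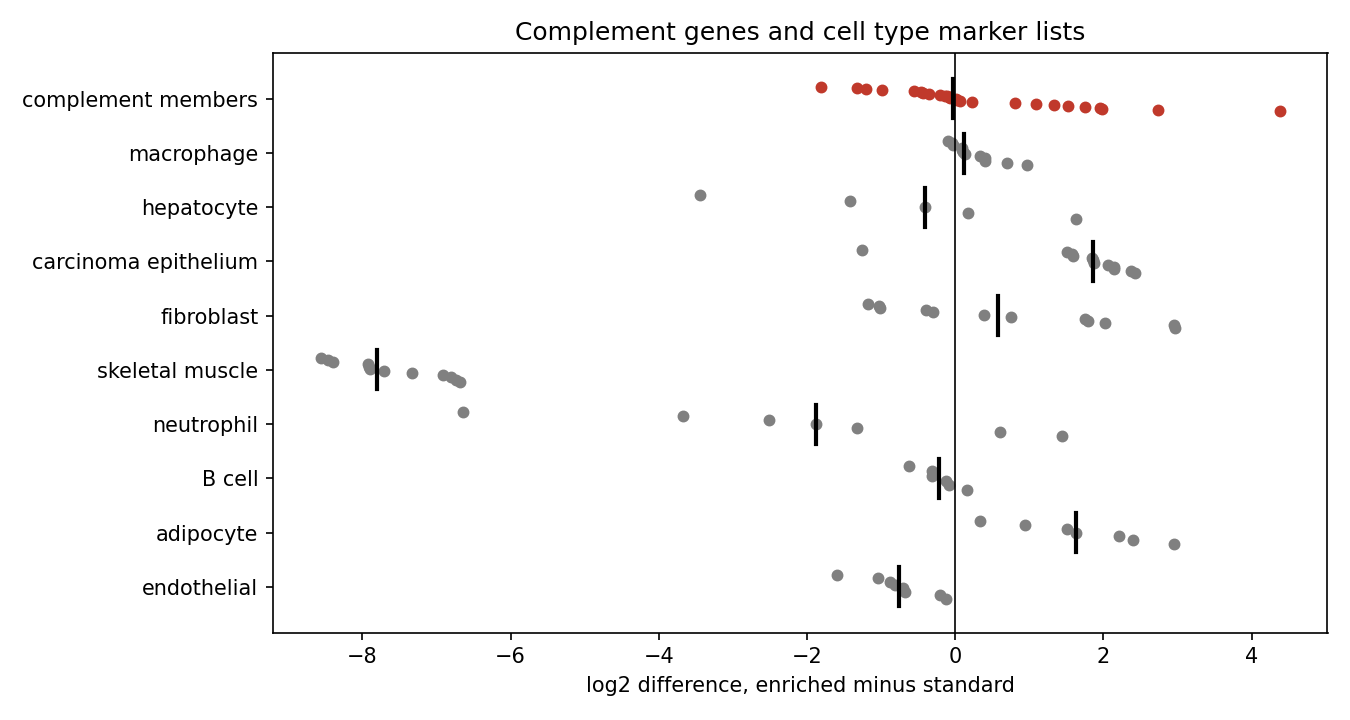
Difference (enriched minus standard, log2, horizontal axis) of each measured gene of the complement group (top row, 26 genes) and of 9 cell type marker lists, with a black bar at each median; vertical scatter within a row carries no value. Complement genes spread from -1.81 to 4.38 around a median of -0.03, macrophage markers stay within -0.09 to 0.97, and skeletal muscle markers lie at -6.68 and below.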

How the data were processed

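Total RNA of 6 tumours was pooled per housing condition before labelling, per the labels' protocols. The deposited scanner files hold a linear intensity per spot which the submitters' processing notes credit to Agilent Feature Extraction, version 10.7.1.1. Background subtraction with spatial and multiplicative detrending came before deposit, per the file headers, which matters most for dim spots. A deposited log2 table of 30319 probes was used as an alternative only. It correlated with the log2 scanner intensity at r = 1.00 on both arrays, which settles its scale and direction, but its scaling and centring are not given in the sources used here. Its medians were 8.56 in the enriched and 8.54 in the standard pool, and its highest value was 19.2 in both. For the members it gave values close to those under quantile normalization, as for C1qa at 0.05 against 0.06. These settings are thus not separate checks.

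Control spots (1639) and spots marked as outliers (70 in the enriched and 66 in the standard pool) were left out. Each array was divided by its 75th percentile, 984 intensity units in the enriched and 753 in the standard pool, before the log2 was taken. Spots of a probe were averaged, then the probes of a gene that were well above background on both arrays, 30307 of 41161 probes. A gene bright on 1 array only was set against the lowest level well above background on the other (-6.21 in the enriched pool, -5.68 in the standard pool) or its own reading, whichever was higher, and is given as a bound. A probe can read above that level without being well above background, as 1 Masp1 probe did at -6.09 in the enriched pool. Such bounds are therefore approximate. Probes were named by RefSeq symbols through accessions (22943 probes), otherwise by the file. Probes are placed as in the array design (mm7), and exon or UTR annotation of that build was not used here. The steps were tested on simulated data and run with Python 3.11.15, pandas 2.3.3, numpy 2.4.6, R 4.3.3 and limma 3.58.1.

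The members and lists were chosen with earlier results of these data known. Every member was to be accounted for, with further complement genes at 2-fold or more, and up to 3 markers of each list with the highest mean level. Alternatives were 7: no filter on dim probes, the brightest probe per gene, normexp background with an offset of 50, quantile normalization, median centring, the percentile over detected probes, and the deposited table.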

Additional observations from a re-analysis of the deposited data

How the results depend on the processing

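Under the 7 alternatives, the 8 members at least 2-fold higher in the enriched pool kept their direction and side of 2-fold, and so did Vtn, which was lower. Not every setting could move these calls. For members with 1 probe, dropping the dim filter or taking the brightest probe returns the main value by construction. Median centring and the percentile over detected probes shift all genes by the same amount, which took the median of all genes from 0.03 to 0.08 and 0.04. Of 182 values over 26 members, 9 changed sign, in C1qa, C1qb, Cr2, Cd55 and Cd46, and 6 changed side of 2-fold, in Masp1, Masp2, C8g, Cd55 and Cd59a. Without the filter on dim probes, all 34 members had a value. Of these, 9 passed 2-fold upwards in the enriched pool and 5 downwards, beside 5.81% and 13.2% of all genes, and the medians were -0.76 for lectin genes, 0.18 for receptors and -0.25 for regulators. More dim probes and genes enter under that setting by its construction. With normexp background, 1 member was at least 2-fold lower and the regulator median was -0.18, and over all genes 3.21% were at least 2-fold higher and 6.35% lower in the enriched pool, against 5.71% and 9.46%. The regulator median was 0.28 with the brightest probe per gene, 0.22 with quantile normalization and 0.23 in the deposited table, so it has no settled sign. The cause of these shifts was not tested. No paired analysis was possible because each housing condition has 1 array, and no array could be left out. Signal over background limits C7, C8a, C8b, C9, Mbl2, the sizes for Fcnb, Cfi, Hc, C8g and Masp2, and the bounds for genes bright on 1 array only. Cd46 also lay close to the lowest level well above background in the standard pool. Cd55 rests on probes that disagree, and Masp1 on 1 of its 4 probes. For C4b, binding of C4a RNA to its probe was not told apart. The number of arrays limits every result.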
